A study of Homo sapiens with 12 samples.

Results

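The data concern 40 genes of mitosis and of the passage from G2 into mitosis, taken by name from a table of 22963 names in which all 40 were found once. They encode cyclins, CDK1 and its activators, mitotic kinases, spindle checkpoint and anaphase proteins, kinetochore components, spindle motors, cytokinesis factors and 2 chromosome proteins. RNA was measured by mRNA sequencing in 12 libraries from 2 human hepatocellular carcinoma (HCC) cell lines, with 3 biological replicates in each of 4 groups. PLC/PRF5 cells carried either a control vector or EGR1 overexpression, delivered as the coding sequence under a CMV promoter in a lentiviral plasmid that also carries copGFP and puromycin resistance. MHCC97H cells were either parental (genotype WT, also labelled Mock) or carried the label EGR1 knockout, a CRISPR/Cas9 modification. The study's methods describe 2 single-cell knockout clones, and which one was sequenced is not given in the sources used here. No treatment was added, and all cells grew in the same serum-containing medium. The labels call the replicates biological without naming separate cultures, so p-values measure the spread between these libraries.

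EGR1 is a zinc finger transcription factor that is induced rapidly by growth signals and binds GC-rich sites. Cells enter mitosis when cyclin B and CDK1 are activated by CDC25 phosphatases, with PLK1 and the Aurora kinases driving spindle assembly. The spindle checkpoint then holds the anaphase-promoting complex (APC/C) until every kinetochore is attached, after which CDC20-bound APC/C directs the destruction of securin and cyclin B. Most of these genes are transcribed mainly in late S, G2 and M phase through the MuvB complexes with B-MYB and FOXM1, which act at a promoter element called the cell cycle genes homology region (CHR), often beside CCAAT boxes bound by NF-Y. In quiescent cells the DREAM complex represses the same promoters. Their RNA is therefore widely read as a measure of proliferation in liver cancer, where the normal hepatocyte hardly divides.

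Values are FPKM, fragments per kilobase of transcript scaled to the size of the library, as deposited. EGR1 stood at 1.97, 1.43 and 2.03 FPKM in the vector libraries and at 56.3, 50.2 and 52.2 FPKM with EGR1 overexpression. In MHCC97H it stood at 20.2, 23.1 and 21.2 FPKM in the parental libraries and at 35.2, 50.3 and 32.9 FPKM in the libraries labelled EGR1 knockout. The EGR1 libraries thus lay above the vector libraries, and the libraries labelled knockout lay above the parental ones, although an indel made by Cas9 need not lower the RNA. With 3 libraries against 3, an exact two-sided permutation test cannot go below p = 0.1, which it gave for both. Replicate libraries correlated at r = 0.993 to 0.997 across genes, and the FPKM of a library summed to 376335 to 437652. The files hold no read counts, so the depth is unknown. Hepatocyte markers were present in PLC/PRF5, where 16 of 18 reached a mean of 1 FPKM with vector and 17 with EGR1, and fewer in MHCC97H, where 11 did so in parental cells and 12 in the libraries labelled knockout. Albumin (ALB) stood at 108, 125 and 113 FPKM with vector, 191, 209.8 and 202 with EGR1, 1.21, 0.611 and 0.830 in parental MHCC97H and 16.5, 15.1 and 14.1 in the libraries labelled knockout. Of 17 hepatocyte markers tested with EGR1, 4 were called higher and 2, TF and FOXA1, lower (23.5% and 11.8%, beside 19.2% and 10.4% of all genes). Of 11 tested between labelled knockout and parental, 8 were called higher and 1, APOH, lower (72.7% and 9.09%, beside 34.8% and 31.5%). Summed FPKM of 7 fibroblast markers was at most 10.9 in any library, and that of 5 endothelial markers at most 8.55. Of 7 leukocyte markers, the sum was 152 to 215.5 FPKM with vector, 125 to 157 with EGR1, 27.1 to 30.6 in parental MHCC97H and 52.8 to 58.1 in the libraries labelled knockout. CD68, a lysosomal protein, and LYZ, lysozyme, made up nearly all of it. CD68 and CD14 were called higher in MHCC97H, whereas PTPRC and CD3E, which define leukocytes and T cells, were at or near 0 in every library. The part of these markers in the results was not tested.

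Promoter sequence was examined because the element these genes share is short and can be read directly. RefSeq sequences (GRCh38.p14), 250 bases before to 50 after the first listed start, were at hand for 33 of the 40 members. A CHR, searched on both strands as TTTGAA or TTCGAA, was found in 24 of 33 members (72.7%), in 16.6% of all 27305 promoters and in 3 of 41 promoters of G1/S and replication genes (7.32%). In the 250 bases before the start alone it was found in 51.5% of the members and 14.6% of all promoters. With any listed start of a gene it was found in 26 of 33 members (78.8%) and 19.5% of all promoters. A CCAAT box, searched as CCAAT, was found in 72.7% of the members, 53.7% of the G1/S genes and 35.7% of all promoters. The EGR1 motifs GCGTGGGCG and GCGGGGGCG were found in 2 of 33 members (6.06%), AURKB and MKI67, and in 5.7% of all promoters. The 100 bases before the start are shown for 7 members whose RNA is followed here, with TTTGAA and CCAAT, or the same words on the other strand (TTCAAA and ATTGG), in capitals. Both words overlap in places.
PLK1, chr16:23678789-23678888, plus strand: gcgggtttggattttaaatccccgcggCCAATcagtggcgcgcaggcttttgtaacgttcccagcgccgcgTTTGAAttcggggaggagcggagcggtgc
CCNB2, chr15:59105046-59105145, plus strand: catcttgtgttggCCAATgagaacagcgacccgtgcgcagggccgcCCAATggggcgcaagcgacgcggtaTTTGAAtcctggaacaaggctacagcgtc
MKI67, chr10:128126424-128126523, minus strand: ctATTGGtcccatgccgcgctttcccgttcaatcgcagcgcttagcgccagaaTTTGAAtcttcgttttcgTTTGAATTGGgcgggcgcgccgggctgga
KIF11, chr10:92593030-92593129, plus strand: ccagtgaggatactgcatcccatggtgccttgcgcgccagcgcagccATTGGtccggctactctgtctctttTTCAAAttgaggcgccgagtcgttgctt
ANLN, chr7:36389762-36389861, plus strand: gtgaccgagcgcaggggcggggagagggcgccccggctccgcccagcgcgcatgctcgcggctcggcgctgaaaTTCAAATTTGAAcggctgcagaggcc
HMMR, chr5:163460532-163460631, plus strand: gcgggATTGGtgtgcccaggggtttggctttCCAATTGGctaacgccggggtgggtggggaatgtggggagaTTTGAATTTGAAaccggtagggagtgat
PTTG1, chr5:160421755-160421854, plus strand: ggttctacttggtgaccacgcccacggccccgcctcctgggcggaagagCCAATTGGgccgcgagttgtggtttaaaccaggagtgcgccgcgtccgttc
PLK1 paired 1 CHR with 1 upstream CCAAT box, and CCNB2 paired 1 CHR with 2. MKI67 held 2 copies of TTTGAA, and ANLN and HMMR each held 2 words that adjoin. KIF11 carried its CHR on the other strand, and PTTG1 had CCAAT and an overlapping ATTGG and no CHR in this window. A match is a description of these letters and not evidence that a factor was bound.

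All 40 members passed the minimum of a mean of 1 FPKM in every comparison. Their FPKM summed to 1436, 1517 and 1479 in the vector libraries, 1322, 1362 and 1348 with EGR1, 1612, 1526 and 1488 in parental MHCC97H and 1489, 1475 and 1474 in the libraries labelled knockout. The EGR1 libraries lay below the vector libraries on this sum, whereas the libraries labelled knockout lay within or just below the parental range. As a share of all FPKM of a library, the members made up 0.359, 0.358 and 0.367% with vector and 0.343, 0.313 and 0.311% with EGR1. The share was 0.426, 0.406 and 0.389% in parental cells and 0.365, 0.352 and 0.337% in the libraries labelled knockout. On this share the groups of each line did not overlap. With vector, the order of levels was led by PTTG1 at 146 ± 3.19 FPKM (SD, n = 3), UBE2C at 128 ± 5.42 and AURKA at 116 ± 3.24. At the other end stood CENPF at 5.57 ± 0.922, PLK4 at 3.58 ± 0.724 and CENPE at 1.66 ± 0.277 FPKM. UBE2C led in parental MHCC97H (106 ± 4.43), where TOP2A (95.6 ± 15.6) did not differ from it beyond the spread. UBE2C also led in the libraries labelled knockout (138 ± 14.8), where CDC25B (132 ± 8.81) did not differ from it beyond the spread. CENPE and PLK4 were among the 3 lowest in every group. The median coefficient of variation between replicates was 9.82% with vector, 4.55% with EGR1, 9.47% in parental cells and 11.3% in the libraries labelled knockout.

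In PLC/PRF5 the question was whether raised EGR1 changed these genes. Of the 40, 6 rose, 10 fell and 24 were not called. In bulk RNA, fewer cells in G2 and M and less RNA per such cell cannot be told apart. The 16 called members are 40% of the 40, beside 29.6% of the 11671 genes tested. Members that fell made up 25.0%, beside 10.4% of all genes, and members that rose 15.0%, beside 19.2%. PTTG1, PLK1 and UBE2C fell most and CENPE, PLK4 and CENPF rose most. Differences are given as log2(FPKM + 1) with the standard error from limma, and the call was an adjusted p under 0.05 over all genes tested. The median over the 40 members was -0.06, beside 0.09 over all genes, a difference of -0.15. With libraries scaled to the same total this difference was again -0.15, with 6 higher and 10 lower. With quantile normalization it was -0.05, with 5 higher and 13 lower. Rises were 37.5% of the called members as deposited, 37.5% scaled to the same total and 27.8% with quantile normalization. Over all genes they were 64.8%, 59.3% and 46.3%. The groups did not overlap for 26 members, of which 15 were lower and 11 higher, beside 17.3% and 30.4% of all genes, 47.7% in all. The count rested in part on single libraries, since it became 10 higher and 12 lower without vector replicate 2, and 6 lower without EGR1 replicate 2. Without vector replicate 2, CDK1, HMMR, NDC80 and NUF2 were called higher and CDC25C, KIF2C and KIF20A lower.

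In MHCC97H the comparison set the libraries labelled knockout against parental cells. Here 11 members rose, 20 fell and 9 were not called. The 31 called members are 77.5% of the 40, beside 66.3% of the 11577 genes tested. Falls took 50% of the members, beside 31.5% of all genes, and rises 27.5%, beside 34.8%. AURKB, CENPA and PLK1 rose most and KIF11, CENPE and CENPF fell most. The median over the members was -0.28, beside 0.02 over all genes. The groups did not overlap for 34 members, of which 22 were lower and 12 higher, beside 33.6% and 38.3% of all genes, 71.8% in all. When each library was scaled to the same total, the median over all genes shifted by -0.13. The members' median then differed from that of all genes by -0.32, beside -0.30 as deposited, with 9 higher and 24 lower. Rises were 35.5% of the called members as deposited, 27.3% with that scaling and 21.9% with quantile normalization, while over all genes they were 52.5%, 41.6% and 50.1%.

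**Figure D1:**
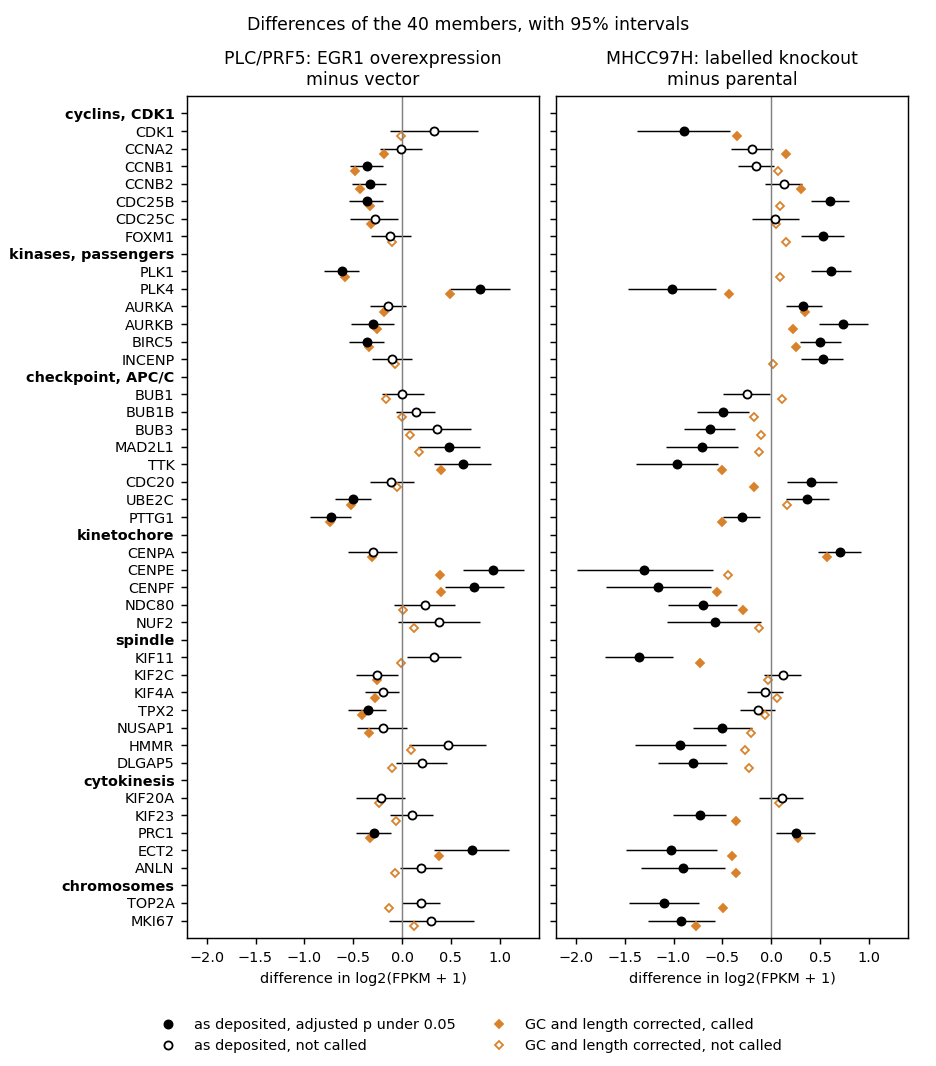
Difference in log2(FPKM + 1) for the 40 members by role, in PLC/PRF5 (left, EGR1 overexpression minus vector) and MHCC97H (right, labelled knockout minus parental). Black circles with 95% intervals are the values as deposited, orange diamonds the values after removal of a smooth function of transcript GC content and length, and filled symbols passed an adjusted p of 0.05. Members to the right on one side tend to lie to the left on the other, and most diamonds lie nearer to 0 than their circles in MHCC97H.

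GC content of the transcript moved with these directions. Transcript GC content ranged from 35.3% (CENPE) to 59.6% (INCENP) over the members, with a median of 43.2%, beside 48.7% over the genes tested. In PLC/PRF5 the 20 members of lower GC held all 6 that rose and 1 that fell, and the 20 of higher GC held 9 that fell and none that rose. In MHCC97H the 20 of lower GC held 17 that fell and none that rose, and the 20 of higher GC 11 that rose and 3 that fell. Over the 40 members the difference correlated with GC at r = -0.71 (rho = -0.78) in PLC/PRF5 and r = 0.87 (rho = 0.87) in MHCC97H. Over all genes with a GC value the correlations were -0.39 and 0.72. Genes of 1 library share its processing, so these are descriptions across genes. They were recomputed after a smooth function of GC and length, fitted over all genes, was removed from each library, which is called the corrected value here. The fit held a constant for each library, so the correction also brought libraries to the same mean. With it the median over all genes shifted by -0.09 in PLC/PRF5 and by -0.03 in MHCC97H. The part of this recentring in the corrected calls was not tested. The corrected correlations with GC were -0.54 and 0.50 over the members. With log2 transcript length the members' differences correlated at r = 0.63 in PLC/PRF5 and -0.56 in MHCC97H as deposited. After correction these were 0.61 and -0.50, so most of the relation to length over the members remained.

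Single libraries differed in this respect within groups. The slope of a library's values on GC, in log2 units per 10 percentage points against its cell line's mean, was 0.17, 0.02 and 0.06 in the vector libraries and -0.12, -0.08 and -0.05 with EGR1. It was -0.36, -0.26 and -0.15 in parental MHCC97H and 0.24, 0.17 and 0.36 in the libraries labelled knockout. Groups of a cell line did not overlap on this slope. The median deviation of the 20 lower-GC members followed it, at -0.36, 0.04 and -0.15 with vector, 0.22, 0.13 and 0.10 with EGR1, 0.66, 0.41 and 0.18 in parental cells and -0.41, -0.12 and -0.63 in the libraries labelled knockout. Since the slope separates the groups, a technical and a biological source of it cannot be told apart here. After correction 5 members rose and 17 fell in PLC/PRF5, beside 16.7% and 17.9% of all genes (34.6% called). In MHCC97H 7 rose and 13 fell, beside 24.3% and 22.4% of all genes (46.7% called).

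**Figure D2:**
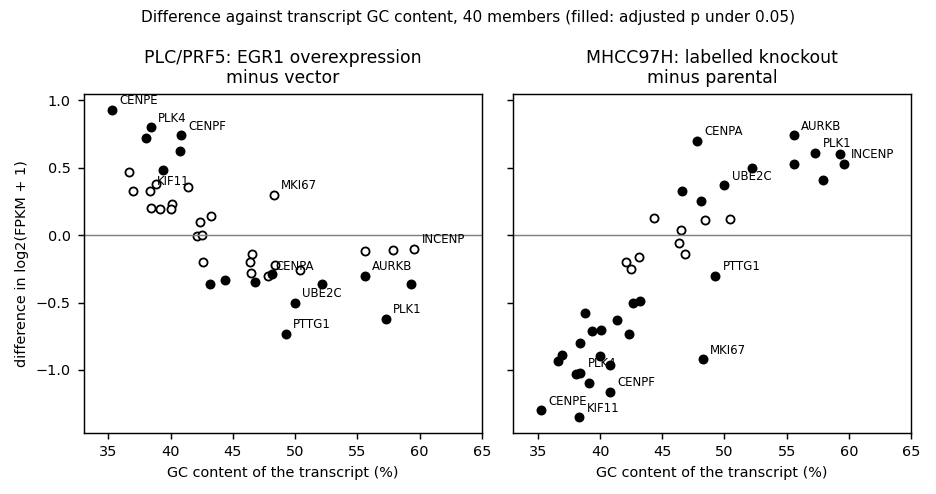
Difference in log2(FPKM + 1) as deposited against GC content of the transcript (%) for the 40 members in PLC/PRF5 (left) and MHCC97H (right), each point a gene and filled where the adjusted p was under 0.05. The points run downward with GC on the left (r = -0.71) and upward on the right (r = 0.87), with PTTG1 below 0 in both and MKI67 apart from its neighbours.

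**Figure D3:**
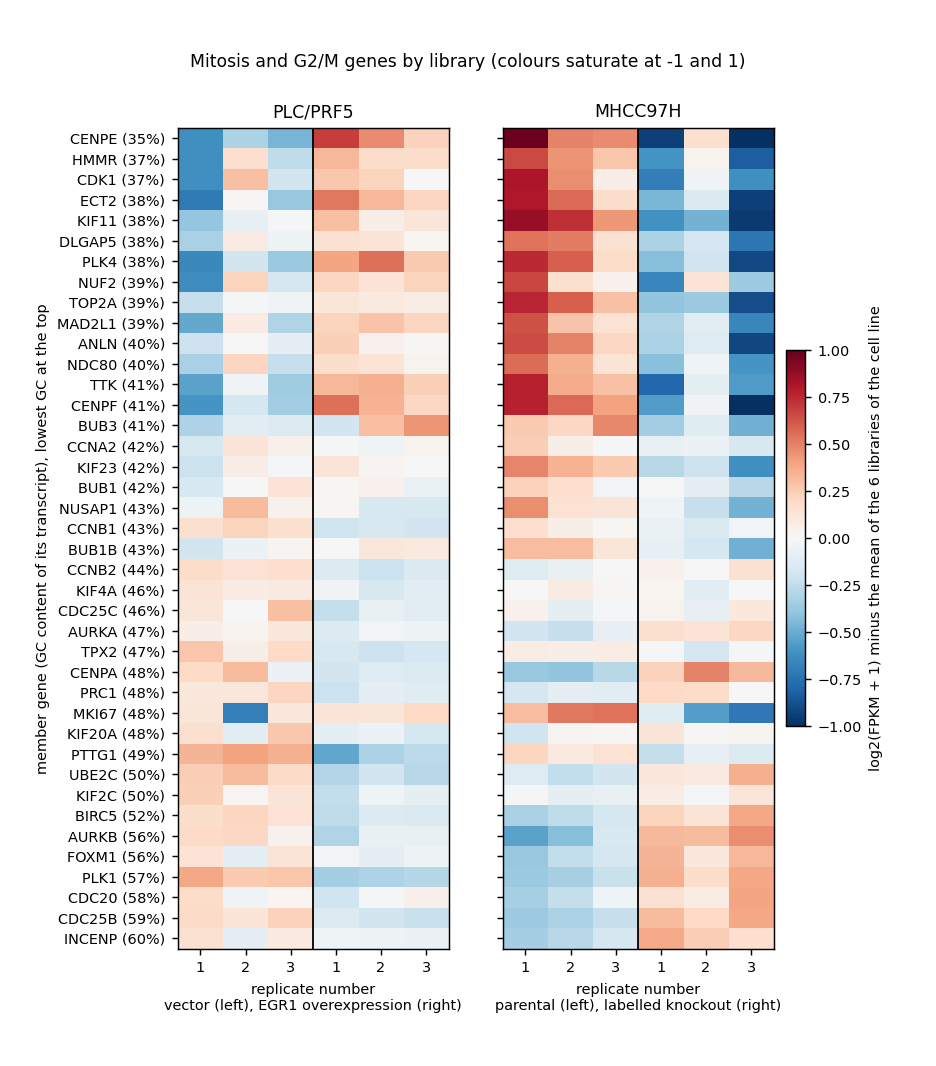
Deviation of each member in each library from the mean of the 6 libraries of its cell line, in log2(FPKM + 1), with members ordered by transcript GC content from 35% at the top to 60% at the bottom and colours saturating at -1 and 1. The upper rows are lowest in vector replicate 1 and in the libraries labelled knockout with numbers 1 and 3, and the lower rows run the other way.

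The cyclins and the activators of CDK1 were divided. CCNB1, the main mitotic cyclin, stood at 78.4, 81.5 and 78.0 FPKM with vector and 60.7, 62.4 and 61.2 with EGR1, without overlap, and fell by 0.36 ± 0.08 (SE, adjusted p = 0.00885). In MHCC97H it stood at 87.0, 80.9 and 77.9 FPKM in parental cells and 73.9, 70.1 and 76.0 in the libraries labelled knockout, without overlap. That difference of -0.16 was not called as deposited (95% interval -0.34 to 0.03, adjusted p = 0.122). CCNB1 was called lower there with libraries scaled to the same total, at -0.31 (adjusted p = 0.00842), and with quantile normalization, at -0.46 (adjusted p = 0.00083). Its fall with EGR1 was kept after correction, at -0.48 (adjusted p = 0.00116). CDK1, the kinase it activates, stood at 25.7, 49.4 and 34.9 FPKM with vector and 48.1, 46.6 and 40.1 with EGR1. These overlapped and were not called, the interval running from -0.12 to 0.78. CDK1 ranged widely between vector replicates, and without vector replicate 2 it was called higher (adjusted p = 0.0213). In MHCC97H it stood at 64.6, 50.7 and 38.3 FPKM in parental cells and 22.2, 35.6 and 23.5 in the libraries labelled knockout, a fall of 0.89 ± 0.21 (SE, adjusted p = 0.00481) that was reduced to -0.35 (adjusted p = 0.0305) by the correction.

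CDC25B, a phosphatase that activates CDK1, stood at 32.6, 31.1 and 33.5 FPKM with vector and 25.7, 24.9 and 24.1 with EGR1. It stood at 82.5, 85.4 and 90.8 FPKM in parental MHCC97H and 133, 122 and 139.6 in the libraries labelled knockout. The groups were apart in both lines, with a fall of 0.36 ± 0.08 (SE, adjusted p = 0.0101) in PLC/PRF5 and a rise of 0.60 ± 0.09 (SE, adjusted p = 0.000401) in MHCC97H. The correction kept the fall, at -0.33 (adjusted p = 0.00614), and ended the call of the rise, at 0.09 (adjusted p = 0.154). FOXM1, the transcription factor of G2/M genes, stood at 47.5, 40.4 and 47.1 FPKM with vector and 42.2, 40.2 and 41.6 with EGR1, which overlapped (95% interval of the difference -0.32 to 0.09). In MHCC97H it went from 52.4, 57.7 and 60.9 FPKM to 87.2, 74.4 and 86.7, a rise of 0.53 ± 0.10 (SE, adjusted p = 0.00144) that lost its call after correction at 0.15 (adjusted p = 0.0607). CCNB2, the other B-type cyclin, fell with EGR1 by 0.33 ± 0.08 (SE, adjusted p = 0.0136), a call lost without vector replicate 3 (adjusted p = 0.0525) or EGR1 replicate 2 (0.0689). It was not called in MHCC97H as deposited (0.13), where the corrected value was 0.31 (adjusted p = 0.0163). CCNA2, the S and G2 cyclin, was called in neither (-0.01 and -0.20), and corrected values of -0.18 (adjusted p = 0.0362) and 0.15 (adjusted p = 0.0377) were. In MHCC97H CCNA2 was called lower with libraries scaled to the same total, at -0.34 (adjusted p = 0.0142), and with quantile normalization, at -0.37 (adjusted p = 0.00702). CDC25C was called in neither as deposited, at -0.28 and 0.04, and was called lower with EGR1 after correction, at -0.32 (adjusted p = 0.0337).

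Among the kinases, PLK1 fell most with EGR1. It promotes mitotic entry, spindle assembly and cytokinesis. PLK1 stood at 62.7, 57.6 and 58.3 FPKM with vector and 37.7, 38.5 and 39.1 with EGR1, a loss of 35.5% of its mean level and a fall of 0.62 ± 0.08 (SE, adjusted p = 0.00116). The correction left it at -0.58 (adjusted p = 0.000341). Parental MHCC97H held PLK1 at 64.7, 66.4 and 71.6 FPKM, and it stood at 107, 94.9 and 110.0 in the libraries labelled knockout. That rise of 0.61 ± 0.09 (SE, adjusted p = 0.00044) became 0.09 (adjusted p = 0.19) after correction and was no longer called. PLK4, which starts centriole duplication, went the other way, from 2.83, 4.28 and 3.62 FPKM with vector to 6.87, 7.76 and 6.17 with EGR1. Its rise was 0.80 ± 0.14 (SE, adjusted p = 0.0039), and 0.49 (adjusted p = 0.00355) after correction. PLK4 fell from 8.95, 7.95 and 5.74 FPKM in parental cells to 3.41, 4.15 and 2.17 in the libraries labelled knockout, by 1.02 ± 0.20 (SE, adjusted p = 0.00188), with a corrected difference of -0.43 (adjusted p = 0.0151).

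AURKA, which matures centrosomes, stood at 116, 113 and 119.8 FPKM with vector and 100.5, 109 and 107 with EGR1. These did not overlap but were not called (-0.14, interval -0.33 to 0.04), and the corrected value of -0.18 (adjusted p = 0.0418) was. Levels in MHCC97H were 37.0, 36.0 and 40.1 FPKM in parental cells and 47.5, 46.6 and 48.9 in the libraries labelled knockout, a rise of 0.33 ± 0.08 (SE, adjusted p = 0.00607), although the adjusted p was 0.0667 with libraries scaled to the same total and 0.219 with quantile normalization. Aurora B acts with BIRC5 (survivin) and INCENP in the chromosomal passenger complex, which corrects faulty attachments. AURKB stood at 52.1, 52.6 and 46.9 FPKM with vector and 36.6, 43.0 and 43.1 with EGR1, a fall of 0.30 ± 0.10 (SE, adjusted p = 0.0443) that lost its call when any 1 of the 6 libraries was left out, with adjusted p between 0.0656 and 0.121. It stood at 25.5, 27.7 and 33.7 FPKM in parental cells and 47.2, 46.9 and 52.2 in the libraries labelled knockout, a rise of 0.74 ± 0.11 (SE, adjusted p = 0.000522), corrected to 0.22 (adjusted p = 0.022). AURKB is 1 of the 2 members whose promoter held an EGR1 motif. BIRC5 stood at 60.4, 62.2 and 58.9 FPKM with vector and 44.4, 48.4 and 48.2 with EGR1, a fall of 0.36 ± 0.08 (SE, adjusted p = 0.0113). It rose from 56.7, 59.6 and 62.9 FPKM to 83.2, 78.4 and 93.1 in MHCC97H, by 0.50 ± 0.09 (SE, adjusted p = 0.00146), and both calls remained after correction, at -0.34 (adjusted p = 0.00221) and 0.25 (adjusted p = 0.00971). INCENP, of the highest GC content, was not called with EGR1 (-0.10) and rose in MHCC97H by 0.53 ± 0.10 (SE, adjusted p = 0.00138), against 0.02 (adjusted p = 0.859) corrected.

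**Figure D4:**
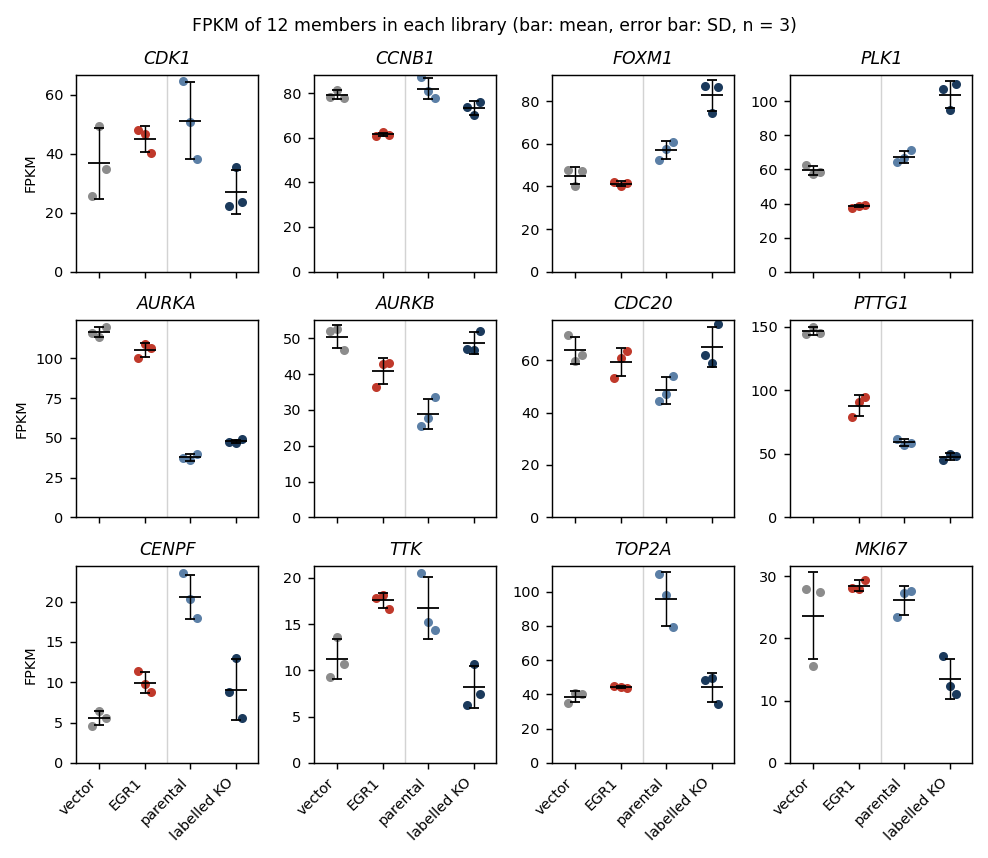
FPKM of 12 members in each of the 12 libraries, with EGR1 standing for EGR1 overexpression and labelled KO for the libraries labelled knockout. Points are libraries, the bar is the mean and the error bar the SD (n = 3), and each axis starts at 0. PTTG1 and PLK1 with EGR1 lie below all vector libraries, and TOP2A and MKI67 in the libraries labelled knockout lie below all parental libraries.

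In the checkpoint and the APC/C arm, PTTG1 was the only member of the 40 called lower in both lines. PTTG1 is securin, which holds separase inactive until anaphase. It stood at 144, 150.01 and 145 FPKM with vector and 78.7, 90.6 and 94.5 with EGR1, a loss of 39.9%, and fell by 0.73 ± 0.09 (SE, adjusted p = 0.00117). It stood at 61.7, 56.7 and 58.6 FPKM in parental MHCC97H and 44.8, 50.2 and 48.2 in the libraries labelled knockout, and fell by 0.30 ± 0.08 (SE, adjusted p = 0.011). Both calls remained after correction, at -0.74 (adjusted p = 6.38e-05) and -0.50 (adjusted p = 0.000645). PTTG1 has near-identical copies in the genome, so reads may be shared, and the copy PTTG2 was at or near 0 in the table. UBE2C, the ubiquitin-conjugating enzyme of the APC/C, stood at 128, 134 and 123 FPKM with vector and 87.7, 94.0 and 88.6 with EGR1, a fall of 0.50 ± 0.08 (SE, adjusted p = 0.00323). In MHCC97H it stood at 110.3, 101 and 106 FPKM in parental cells and 129.6, 129 and 155 in the libraries labelled knockout, a rise of 0.37 ± 0.10 (SE, adjusted p = 0.00784) that lost its call after correction, at 0.16 (adjusted p = 0.115), and with quantile normalization, where the adjusted p was 0.638.

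CDC20, the activator of the APC/C, stood at 69.6, 59.6 and 62.1 FPKM with vector and 53.3, 60.9 and 63.5 with EGR1, which overlapped (interval -0.33 to 0.12). MHCC97H had CDC20 at 44.3, 47.2 and 54.2 FPKM in parental cells and 62.2, 59.1 and 73.8 in the libraries labelled knockout, a rise of 0.41 ± 0.11 (SE, adjusted p = 0.0097) whose direction turned with the correction, to -0.18 (adjusted p = 0.0435). With quantile normalization its adjusted p was 0.144. TTK (MPS1), the kinase that starts checkpoint signalling, stood at 9.30, 13.6 and 10.7 FPKM with vector and 17.8, 18.1 and 16.7 with EGR1, and rose by 0.62 ± 0.13 (SE, adjusted p = 0.00815). It fell from 20.6, 15.3 and 14.3 FPKM in parental cells to 6.30, 10.7 and 7.49 in the libraries labelled knockout, by 0.96 ± 0.19 (SE, adjusted p = 0.00184). Corrected values were 0.40 (adjusted p = 0.00466) and -0.50 (adjusted p = 0.0256), both called. MAD2L1, the checkpoint protein that binds CDC20, stood at 7.12, 11.2 and 8.39 FPKM with vector and 12.5, 13.0 and 12.4 with EGR1, and at 22.9, 17.8 and 16.1 in parental cells and 11.5, 13.2 and 8.80 in the libraries labelled knockout. It rose by 0.48 ± 0.14 (SE, adjusted p = 0.0331) and fell by 0.71 ± 0.16 (SE, adjusted p = 0.00428), and neither was called after correction, at 0.17 (adjusted p = 0.197) and -0.12 (adjusted p = 0.246). The rise of MAD2L1 also lost its call without any one library but vector replicate 2, with adjusted p between 0.0683 and 0.0994. The checkpoint genes BUB1B and BUB3 were called lower in MHCC97H (-0.49 and -0.63, not called after correction), and the kinase BUB1 was called in neither (0.00 and -0.25). BUB1 was called lower in MHCC97H with libraries scaled to the same total, at -0.40 (adjusted p = 0.0163), and with quantile normalization, at -0.40 (adjusted p = 0.0075).

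Kinetochore genes included the largest rise with EGR1. CENPE, a motor that moves chromosomes to the spindle equator, stood at 1.39, 1.94 and 1.65 FPKM with vector and 4.93, 4.10 and 3.29 with EGR1, 2.47 times the vector mean. Its level was low, and the difference was 0.93 ± 0.14 (SE, adjusted p = 0.00226). It stood at 6.53, 4.39 and 4.29 FPKM in parental cells and 1.01, 3.28 and 0.695 in the libraries labelled knockout, which vary widely, and fell by 1.30 ± 0.31 (SE, adjusted p = 0.00506). CENPE has the lowest GC content of the members, and corrected values were 0.39 (adjusted p = 0.0133) and, not called, -0.44 (adjusted p = 0.122). CENPF, a large protein of the outer kinetochore, stood at 4.62, 6.47 and 5.63 FPKM with vector and 11.4, 9.77 and 8.77 with EGR1, a rise of 0.74 ± 0.13 (SE, adjusted p = 0.0046). It fell from 23.5, 20.3 and 18.0 FPKM to 8.78, 13.0 and 5.52 in MHCC97H, by 1.16 ± 0.24 (SE, adjusted p = 0.00239), and both calls remained after correction, at 0.40 (adjusted p = 0.0203) and -0.56 (adjusted p = 0.0309).

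Of 5 kinetochore members, 1 rose and 4 fell in MHCC97H, beside 34.8% and 31.5% of all genes. After correction 1 rose and 2 fell there, beside 24.3% and 22.4%. CENPA, the histone H3 variant of centromeres, was the member called higher in each case. It stood at 13.8, 15.1 and 11.4 FPKM with vector and 10.4, 10.8 and 10.7 with EGR1, a difference of -0.30 that was not called as deposited (adjusted p = 0.0678) and was called after correction, at -0.31 (adjusted p = 0.0291). In MHCC97H it rose from 11.2, 11.0 and 12.03 FPKM to 17.5, 21.2 and 18.7, by 0.70 ± 0.10 (SE, adjusted p = 0.000374), and by 0.57 (adjusted p = 0.000708) after correction. NDC80 and NUF2, subunits of the complex that grips microtubules, fell in MHCC97H by 0.70 ± 0.16 (SE, adjusted p = 0.00366) and 0.58 ± 0.22 (SE, adjusted p = 0.0373). NUF2 groups overlapped there, its call was lost without parental replicate 1, or without the libraries labelled knockout numbered 1 or 3 (adjusted p between 0.0829 and 0.149), and its corrected value was -0.12 (adjusted p = 0.516), against -0.29 (adjusted p = 0.0233) for NDC80. With EGR1 neither was called (0.23 and 0.38).

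Of 7 spindle genes, 1 fell with EGR1 (14.3%, beside 10.4% of all genes) and 4 fell in the libraries labelled knockout (57.1%, beside 31.5%) as deposited. After correction 4 fell with EGR1 (57.1%, beside 17.9%) and 1 in the libraries labelled knockout (14.3%, beside 22.4%). KIF11, the motor that separates the spindle poles, stood at 27.5, 24.9 and 20.0 FPKM in parental cells and 9.23, 10.2 and 7.05 in the libraries labelled knockout. It kept 0.366 of its parental mean, and the fall of 1.35 ± 0.15 (SE, adjusted p = 0.000111) was -0.73 (adjusted p = 0.000101) after correction. In PLC/PRF5 it stood at 8.19, 10.4 and 10.9 FPKM with vector and 13.8, 11.6 and 12.1 with EGR1, without overlap and without a call (0.33, adjusted p = 0.0695). TPX2, the activator of Aurora A on the spindle, fell with EGR1 by 0.35 ± 0.09 (SE, adjusted p = 0.0154) and was not called in MHCC97H (-0.14). That fall lost its call without vector replicate 1 or 3 or EGR1 replicate 2 or 3 (adjusted p between 0.0504 and 0.0656). In MHCC97H TPX2 was called lower with libraries scaled to the same total, at -0.29 (adjusted p = 0.00974), and with quantile normalization, at -0.44 (adjusted p = 0.000713). HMMR, DLGAP5 and NUSAP1, which bind or bundle spindle microtubules, fell in MHCC97H by 0.93, 0.80 and 0.50, and none of the 3 was called there after correction. NUSAP1 was called lower with EGR1 after correction, at -0.34 (adjusted p = 0.0103). KIF2C, a microtubule depolymerase, and KIF4A, a chromosome-bound motor, were called in neither line as deposited. KIF2C differed by -0.26 with EGR1 and 0.12 in MHCC97H, and KIF4A by -0.20 and -0.06. With quantile normalization KIF4A was called lower in MHCC97H, at -0.25 (adjusted p = 0.0201), and KIF2C lower with EGR1, at -0.29 (adjusted p = 0.04). Corrected values with EGR1 were -0.26 (adjusted p = 0.0192) for KIF2C and -0.28 (adjusted p = 0.00999) for KIF4A, both called lower.

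Cytokinesis genes included a pair that moved in opposite directions. ECT2, which activates RhoA at the cleavage site, stood at 29.2, 49.0 and 37.1 FPKM with vector and 70.2, 61.3 and 56.5 with EGR1, a rise of 0.72 ± 0.17 (SE, adjusted p = 0.0143) that was not called with no minimum level (adjusted p = 0.0538). It fell from 51.3, 43.6 and 32.9 FPKM in parental cells to 20.9, 26.1 and 14.7 in the libraries labelled knockout, by 1.03 ± 0.21 (SE, adjusted p = 0.00227). Corrected values were 0.38 (adjusted p = 0.0146) and -0.40 (adjusted p = 0.0193). PRC1, which bundles the central spindle, stood at 45.7, 46.2 and 49.5 FPKM with vector and 36.6, 39.7 and 39.0 with EGR1, and at 37.9, 39.9 and 39.5 in parental cells and 49.1, 48.7 and 42.6 in the libraries labelled knockout. It fell by 0.29 ± 0.08 (SE, adjusted p = 0.0275) and rose by 0.25 ± 0.09 (SE, adjusted p = 0.0293). The rise was not called with libraries scaled to the same total (adjusted p = 0.375), or with quantile normalization (0.700). The fall was lost without vector replicate 1 or 3 or EGR1 replicate 2 or 3 (adjusted p between 0.0555 and 0.110), and the rise without either library numbered 1 or 2 (adjusted p between 0.0785 and 0.0920). ANLN, the anillin of the contractile ring, and KIF23, a motor of the central spindle, fell in MHCC97H by 0.90 and 0.73, and by 0.36 and 0.36 after correction. KIF20A, a motor needed for late cytokinesis, was called in neither line (-0.22 and 0.11).

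The chromosome proteins fell in the libraries labelled knockout and were not called with EGR1. TOP2A, the topoisomerase that untangles sister DNA, stood at 110.0, 97.8 and 79.1 FPKM in parental cells and 48.6, 49.5 and 34.4 in the libraries labelled knockout. It fell by 1.10 ± 0.16 (SE, adjusted p = 0.00042), and by 0.49 after correction (adjusted p = 0.00109). With vector it stood at 34.9, 40.6 and 40.2 FPKM and with EGR1 at 44.9, 44.1 and 43.5. The difference of 0.19 was not called. MKI67, the proliferation antigen Ki-67, stood at 23.4, 27.3 and 27.6 FPKM in parental cells and 17.1, 12.4 and 11.0 in the libraries labelled knockout, and fell by 0.92 ± 0.15 (SE, adjusted p = 0.000756). Its GC content of 48.3% is close to that of all genes, and the corrected fall was the largest of the members, at -0.77 (adjusted p = 0.000661). Its transcript is also the longest of the members, at 12678 bases, and corrected differences in MHCC97H still correlated with length (r = -0.50). MKI67 stood at 27.9, 15.5 and 27.5 FPKM with vector, where replicate 2 lay apart, and at 28.0, 27.9 and 29.5 with EGR1, with an interval of -0.13 to 0.74.

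Across both comparisons, 34 of the 40 members had opposite signs in the 2 comparisons as deposited and 29 did after correction. Over the 10369 genes tested in both, 65.2% had opposite signs as deposited, and 57.3% of 9987 did after correction, beside 85.0% and 72.5% of the members. The comparisons share no library, but the GC slope ran in opposite directions in them. As deposited, PLK4, MAD2L1, TTK, CENPE, CENPF and ECT2 rose with EGR1 and fell in the libraries labelled knockout, and CDC25B, PLK1, AURKB, BIRC5, UBE2C and PRC1 did the reverse. After correction PLK4, TTK, CENPF and ECT2 remained in the first set, and AURKB, BIRC5 and PRC1 in the second, which CCNA2, CCNB2, AURKA and CENPA joined. PTTG1 was lower in both under each. A direct test of the difference between the comparisons, over 12 libraries, called 14 members higher in MHCC97H than in PLC/PRF5 and 18 lower, beside 30.4% and 33.4% of all genes, 63.8% in all. After correction it called 19 higher and 11 lower, beside 26.0% and 23.9%, 49.8% in all. The largest differences as deposited were 1.23 ± 0.11 (SE, adjusted p = 3.49e-06) for PLK1 and -2.23 ± 0.39 (SE, adjusted p = 0.000362) for CENPE. EGR1 RNA was higher both with EGR1 overexpression and in the libraries labelled knockout than in their controls.

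The control groups of the lines also differed from each other. Parental MHCC97H had 16 members higher and 10 lower than vector PLC/PRF5, which is 65% of members, beside 38.8% of all genes higher and 40.9% lower, 79.8% in all. CENPF, at 23.5, 20.3 and 18.0 FPKM against 4.62, 6.47 and 5.63, differed by 1.72 ± 0.14 (SE, adjusted p = 4.22e-06), CDC25B by 1.39 ± 0.08 (SE, adjusted p = 3.64e-07) and TOP2A by 1.28 ± 0.13 (SE, adjusted p = 1.70e-05). AURKA, at 37.0, 36.0 and 40.1 FPKM against 116, 113 and 119.8, differed by -1.60 ± 0.07 (SE, adjusted p = 1.37e-07), PTTG1 by -1.30 ± 0.07 (SE, adjusted p = 3.47e-07) and AURKB by -0.79 ± 0.11 (SE, adjusted p = 0.000178). After correction CENPF, CDC25B, TOP2A, AURKA and PTTG1 stayed called, and AURKB, at -0.12 (adjusted p = 0.118), did not. Cell line and carriage of the vector cannot be told apart in this comparison.

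Promoter content and direction were set side by side as a description. Of the 24 members with a CHR, 4 rose and 3 fell in PLC/PRF5, beside 19.2% and 10.4% of all genes, and 5 rose and 16 fell in MHCC97H, beside 34.8% and 31.5%. After correction 3 rose and 6 fell in PLC/PRF5, beside 16.7% and 17.9% of all genes, and 3 rose and 11 fell in MHCC97H, beside 24.3% and 22.4%. Of the 9 with a promoter and no CHR at the first listed start, 1 rose and 4 fell in PLC/PRF5, and 2 rose and 2 fell in MHCC97H. The corrected counts for these 9 were 1 and 7, and 2 and 1. Most members with a CHR were among the 20 of lower transcript GC, and most of these 9 among the 20 of higher GC. The part of GC content in these counts was not tested. As deposited PLK1 rose and KIF11 fell in MHCC97H although both hold a CHR, and after correction the rise of PLK1 was not called.

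Other genes of the pathway were counted from lists of their own. Of 72 further mitosis genes, 17 rose and 3 fell with EGR1, or 23.6% and 4.17%, beside 19.2% and 10.4% of all genes. In the libraries labelled knockout 23 rose and 34 fell, or 31.9% and 47.2%, beside 34.8% and 31.5% of all genes. With correction 13 rose and 10 fell with EGR1 (18.1% and 13.9%, beside 16.7% and 17.9%), and 13 rose and 19 fell in MHCC97H (18.1% and 26.4%, beside 24.3% and 22.4%). The condensin subunit SMC2 (0.89) and the cohesin protector SGO2 (0.86) rose most with EGR1, and CCNF (-0.55) and the condensin subunit NCAPD2 (-0.38) fell most. In MHCC97H the centromere protein CENPO (0.96) and the checkpoint gene MAD1L1 (0.91, whose groups overlapped) rose most, and the motor KIF20B (-1.90) and the spindle pole gene ASPM (-1.40) fell most. MAD1L1 and ASPM were not called after correction. Of 17 core APC/C genes none was called with EGR1, beside 29.6% of all genes. In MHCC97H 3 rose and 7 fell (17.6% and 41.2%, beside 34.8% and 31.5%), led by UBE2S (1.23), FZR1 (0.76), ANAPC10 (-0.84) and CDC27 (-0.73). After correction 1 fell with EGR1 (ANAPC5, or 5.88%, beside 17.9%). In MHCC97H 3 rose and 5 fell (17.6% and 29.4%, beside 24.3% and 22.4%), and FZR1 and CDC27 were not called there.

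Known regulators of these genes were counted in the same way. Of 11 genes of the MuvB and DREAM complexes, 1 rose with EGR1 (LIN9, 0.53), or 9.09%, beside 19.2% of all genes. In MHCC97H 3 rose and 5 fell (27.3% and 45.5%, beside 34.8% and 31.5%). There MYBL2, the B-MYB gene (0.72), and E2F4 (0.40) rose most and LIN9 (-1.06) and RBL1 (-0.83) fell most. After correction none rose and 3 fell with EGR1 (E2F5, RBBP4 and MYBL2, or 27.3%, beside 17.9%), with LIN9 at 0.33 (adjusted p = 0.0643). In MHCC97H 1 rose and 4 fell (9.09% and 36.4%, beside 24.3% and 22.4%). MYBL2 was not called there and E2F4 stood at -0.17 (adjusted p = 0.0283). Of 9 genes tested with EGR1 that slow the passage from G2, among them checkpoint kinases, GADD45A (1.01) and CHEK1 (0.44) rose and CCNG2 (-0.46) fell. These are 22.2% and 11.1% of the 9, beside 19.2% and 10.4% of all genes. In MHCC97H 4 of 10 rose and 4 fell, with SFN (1.02) and GADD45B (0.91) at one end and MDM2 (-0.72) and CCNG1 (-0.63) at the other. MDM2 and CCNG1 were not called there after correction. Corrected values gave 2 rises and 2 falls with EGR1 (22.2% each, beside 16.7% and 17.9%). They gave 3 rises and 1 fall in MHCC97H (30.0% and 10.0%, beside 24.3% and 22.4%). CDKN1A, the CDK inhibitor p21, stood at 8.56, 9.10 and 8.47 FPKM with vector, 6.52, 7.66 and 7.86 with EGR1, 7.80, 7.96 and 7.65 in parental cells and 8.99, 7.94 and 9.89 in the libraries labelled knockout. It was not called in either line as deposited (-0.22 and 0.17), and its corrected value in MHCC97H was -0.38 (adjusted p = 0.0063).

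The G1/S and replication genes, transcribed earlier in the cycle, give a comparison. Of 48, 6 rose and 6 fell with EGR1, which is 12.5% each beside 19.2% and 10.4% of all genes. In MHCC97H 14 rose and 15 fell, or 29.2% and 31.2%, beside 34.8% and 31.5%. After correction 5 rose and 8 fell with EGR1 (10.4% and 16.7%, beside 16.7% and 17.9%), and 6 rose and 15 fell in MHCC97H (12.5% and 31.2%, beside 24.3% and 22.4%). With EGR1 the replication kinase subunit DBF4 (0.63) and CCNE2 (0.63) rose most, and CCNE1 (-0.40) and GINS1 (-0.40) fell most. In MHCC97H the flap endonuclease FEN1 (0.88) and the helicase subunit MCM5 (0.76) rose most, and RFC3 (-0.97) and DBF4 (-0.92) fell most. CCNE2 was not called after correction.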

How the data were processed

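Messenger RNA was purified with oligo(dT) beads, libraries were treated with a duplex-specific nuclease and sequenced on an Illumina Novaseq instrument, per the labels. The authors deposited 1 table of FPKM values. Its processing notes name StringTie and hg38, while the aligner, versions and strand setting are not given in the sources used here. Nuclease treatment thins abundant sequences and can compress levels.

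Each of the 40 members was matched by symbol. Of 19932 names that are not assembled loci, 99.2% matched GENCODE 29, which gave transcript GC content and length. limma 3.58.1 (R 4.3.3, moderated with a mean trend) was fitted to log2(FPKM + 1), which understates changes of low genes, over names with a mean of at least 1 FPKM, with Benjamini-Hochberg adjustment over all of them. The 2 groups compared entered each fit, and 12 libraries entered the difference. Corrected values had a natural spline (5 degrees of freedom) of GC and of log2 length removed from each library, together with a constant that recentred the library. Scripts were tested on simulated data. With no counts, no depth or counting error can be given.

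Members and lists were chosen with earlier results of these data known. Values in every library are given for CDK1, CCNB1, FOXM1, PLK1, AURKA, AURKB, CDC20, TOP2A and MKI67, for members called in both lines and for the 3 largest rises and falls among those called in each comparison of groups. Each further list gives its 2 largest rises and falls, and CDKN1A is given in any case. A gene of the list that slows the passage from G2 is not reported here. Alternatives were another pseudocount, no minimum level, 2 scalings, no trend, a replicate block, the correction, 1 joint fit, a stricter threshold and leaving out each library.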

Additional observations from a re-analysis of the deposited data

How the results depend on the processing

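With the correction for GC content and length, members lower became 17 in PLC/PRF5, members higher 7 and lower 13 in MHCC97H, and members lower 11 in the difference between comparisons. At an adjusted p of 0.01, 4 members were lower in PLC/PRF5, beside 571 of the 11671 genes tested. CENPE, PLK4, CENPF and TTK were higher at that threshold, beside 897 of all genes. With no minimum level, AURKB (adjusted p = 0.0676), MAD2L1 (0.0831) and ECT2 (0.0538) lost their calls in PLC/PRF5 and NUF2 (0.108) in MHCC97H. Quantile normalization gave 7 higher in MHCC97H and 6 lower at baseline. In the 250 bases before the start alone the CHR was found in 51.5% of members. Leaving out 1 library gave 5 to 10 higher and 6 to 12 lower in PLC/PRF5, 10 to 11 and 19 to 21 in MHCC97H, 15 to 17 and 9 to 10 at baseline, and 14 to 17 and 17 to 18 for the difference.

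Among members called before or after the correction, directions turned with it in MHCC97H for CCNA2 (0.15) and CDC20 (-0.18), in the difference for CCNA2 (0.32), BUB1 (0.25) and CDC20 (-0.10), and at baseline for CCNA2 (-0.23), BIRC5 (0.25), BUB1 (-0.21), BUB1B (-0.19), CDC20 (0.18), UBE2C (0.26), HMMR (-0.36) and ECT2 (-0.38). Quantile normalization turned BIRC5 (0.24) and UBE2C (0.06) at baseline. Of members called under neither, the sign turned for 7 in PLC/PRF5, 4 in MHCC97H, 4 at baseline and 1 in the difference. The cause was not tested.

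Same-numbered libraries deviated together with correlations of -0.13, 0.14 and -0.08 in PLC/PRF5 and 0.03, 0.03 and 0.47 in MHCC97H. Libraries of unlike number had correlations from -0.17 to 0.21 and from -0.41 to 0.38. These values do not settle whether the numbers pair the libraries. With the replicate block 7 members were higher and 8 lower in PLC/PRF5, and 11 and 21 in MHCC97H. With block and correction 6 were higher in MHCC97H. The lower pseudocount changed no member count in the first 2 comparisons. Depth is unknown, and 3 libraries a group limit precision.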
